A study of Bos taurus with 8 samples.

Results

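A stretch of bovine chromosome 21 that was tiled with 589 of the 10249 array probes is described here. Its members are all non-control probes whose start lies between 6000000 and 7500000 on chromosome 21 (build Btau_3.1), a choice by position. They begin at 6564416 and end at 6874200, a span of 309784 bp, and no probe of the chromosome lies near either edge of the window. Of the 97 tiled loci on the array, it holds the second largest number of probes. No gene names come with the probes, so they are named by position, and the strand is not given.

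The DNA came from the arcuate nucleus of the hypothalamus of 8 heifers, 1 array per animal. High-gain heifers 1 to 4 were fed for a target gain of 1 kg per day and low-gain heifers 5 to 8 for 0.5 kg per day. In both groups the schedule ran from 4.5 to 8.5 months of age, and the nucleus was sampled at its end. On each array DNA captured by a methyl-CpG binding domain (MBD) protein was hybridised beside the total DNA (input) of the same animal, 3 µg of each.

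In mammals, DNA methylation is found mainly on cytosines followed by guanine (CpG). An MBD protein holds double-stranded fragments that carry methylated CpG sites, so capture depends both on how many CpG sites a fragment has and on how many of them are methylated. The arcuate nucleus contains neurons that take part in the control of food intake and of reproductive hormone release. As a piece of tissue it holds neurons and glia, and the array gives 1 value for all of its cells, so a change in methylation within cells and a change in the mix of cells cannot be told apart.

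Every level below is log2(enriched/input) relative to the median of all non-control probes on the same array, so 0 is the middle probe of that array and not an absence of methylation. All 8 arrays shared 1 slide and 1 scan. The arrays of low-gain heifers 6, 7 and 8 stood apart from the other 5. Over the 589 probes their pairwise Pearson's r was 0.54 to 0.61, against 0.04 to 0.11 between each of them and low-gain heifer 5. High-gain pairs gave -0.0049 to 0.16, and pairs of 1 high-gain and 1 low-gain heifer -0.07 to 0.26. Over the other probes the trio of low-gain heifers had r of 0.58 to 0.67. These correlations compare the same probes, each with its own length and bases, between arrays of 1 slide, and carry no test. Counts of probes and regions that differ between the groups at an unadjusted p under 0.05 are given with and without low-gain heifer 5. So are counts of regions that depart from the array median. Counts of single probes that depart from it, of items without overlap of the groups and of runs of probes use all 8 arrays.

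**Figure D1:**
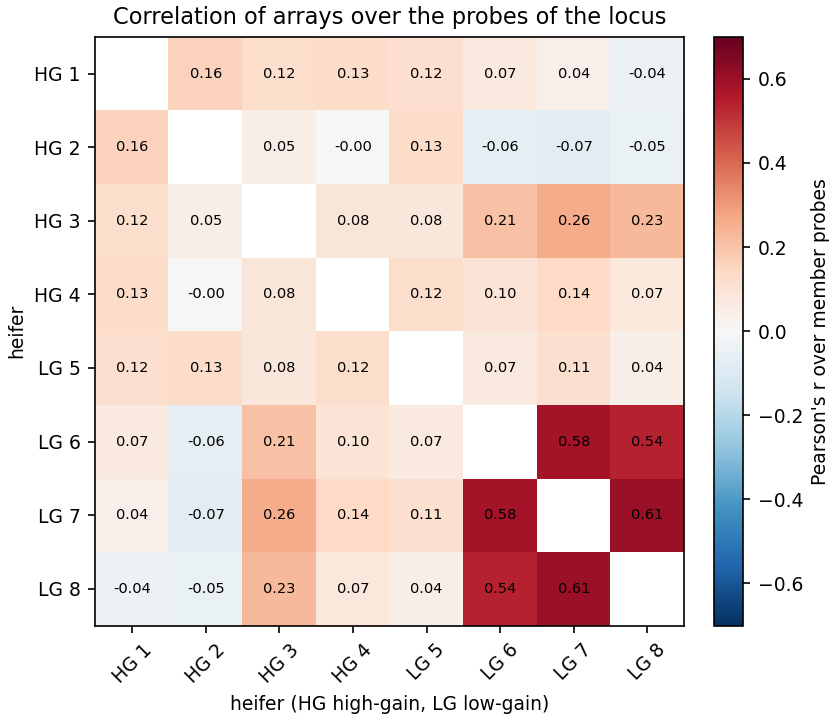
Pearson's r between arrays over the probes of the chromosome 21 locus, with high-gain heifers (HG) before low-gain heifers (LG) on both axes and the colour scale running from blue (negative) to red (positive). The block of low-gain heifers 6, 7 and 8 lies at 0.54 to 0.61, and every other pair lies at or below 0.26.

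Neighbouring probe starts lay a median of 337 bp apart (136 to 13821 bp). A region is defined here as at least 3 probes whose starts are at most 1000 bp apart. By that definition 579 of the 589 probes fell into 42 regions of 3 to 62 probes (median 10), and 10 probes lay outside any region. The tiling had 3 long breaks, of 10088 bp before the probe at 6689654, of 13821 bp before 6755916 and of 9497 bp before 6808975. The files print no probe sequence, but the coordinates give each probe a length of 45 to 60 bp. At the locus 30.7% of probes were at the shortest length and 32.6% at the longest, against 35.96% and 35.8% of the other probes. The locus thus had a smaller share at both extremes of length.

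The mean of the locus lay slightly below the median probe on every array. It was -0.07, -0.03, -0.12 and -0.02 in high-gain heifers 1 to 4, and -0.09, -0.21, -0.13 and -0.23 in low-gain heifers 5 to 8. All 8 means were negative, the lowest being those of low-gain heifers 6 and 8, and the groups overlapped. The mean over all other probes was also negative on 7 of 8 arrays, averaging -0.10 ± 0.09 in the high-gain group and -0.13 ± 0.07 in the low-gain group (SD, n = 4 each). The mean of both groups at the locus was -0.11 with a standard error of 0.05, which did not pass (limma over the 97 loci, two-sided, adjusted p = 0.114). Across the array 41.2% of loci passed the same test, so a departure from the median probe was frequent, and this locus ranked 40 of 97 from the lowest. The locus averaged -0.06 ± 0.05 in the high-gain group and -0.16 ± 0.07 in the low-gain group (SD, n = 4 each). The high-gain minus low-gain difference was 0.10 (standard error 0.11), against 0.10 in slide row 1 (heifers 1, 2, 5 and 6) and 0.11 in slide row 2 (heifers 3, 4, 7 and 8).

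Along the locus, group means over windows ran from -0.34 to 0.25 around the array median. In windows of 50 kb counted from the first probe, the first held 110 probes and averaged -0.13 ± 0.14 in the high-gain group and -0.31 ± 0.15 in the low-gain group (SD, n = 4 each, here and for the next windows). The window from 150 to 200 kb held 86 probes and averaged -0.16 ± 0.08 in the high-gain group and -0.34 ± 0.20 in the low-gain group. From 250 to 300 kb the mean of 107 probes was 0.03 ± 0.19 in the high-gain group and -0.02 ± 0.07 in the low-gain group. The windows at 50 to 100 kb and 200 to 250 kb had group means between -0.08 and -0.02, and the one at 100 to 150 kb averaged -0.09 in the high-gain group and -0.25 in the low-gain group. The last stretch, from 6864574 on, had only 18 probes and stood at 0.30, -0.02, 0.34 and 0.37 in high-gain heifers and at -0.09, -0.08, -0.14 and -0.36 in low-gain heifers. It was the only window in which the groups did not overlap, and such windows were not counted over the rest of the array. The window contains the regions at 6869469 and 6871455 described below, so it is not a separate observation from them.

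Of the 42 regions, 2 were below the array median at an adjusted p under 0.05 and 0 were above it (limma over 960 regions). That is 4.76% of the locus's regions below, where 9.58% of all regions on the array were below and 3.33% above. Counting both directions, 4.76% of the locus's regions and 12.9% of all regions passed.

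The lowest region ran from 6689654 to 6691512, just after the break of 10088 bp, and held 6 probes. It stood at -0.28, 0.36, -1.08 and -0.88 in high-gain heifers and at -0.33, -1.17, -1.23 and -1.52 in low-gain heifers. It was negative on 7 of 8 arrays, high-gain heifer 2 being the exception. Its mean over both groups was -0.77 with a standard error of 0.17 (limma, adjusted p = 0.0163). Within it the first probe, at 6689654, was the lowest, with a mean of -2.46, and the last, at 6691461, had a mean of 0.56. A probe is called detected in a channel where the scanner software marked it well above background. That first probe was detected in the enriched DNA of 1 high-gain heifer and of no low-gain heifer, and in the input of all 8. Over probes detected in both channels the region had a mean of -0.27 and was not called (limma, adjusted p = 0.198).

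The other region that passed ran from 6592857 to 6594481 with 4 probes. It stood at -0.29, 0.12, -0.84 and 0.05 in high-gain heifers and at -0.34, -1.02, -0.68 and -1.11 in low-gain heifers. It was negative on 6 of 8 arrays, and high-gain heifers 2 and 4 lay just above 0. Its mean was -0.51 with a standard error of 0.14 (limma, adjusted p = 0.0328). Both calls depended on single animals. The region at 6689654 no longer passed without heifer 3 (high-gain), 6 or 8 (both low-gain) (limma, adjusted p = 0.0520, 0.0515 and 0.0540). The region at 6592857 lost its call when heifer 1 or 3 (high-gain) was left out (limma, adjusted p = 0.0717 and 0.0922), and likewise for heifer 6, 7 or 8 (low-gain; limma, adjusted p = 0.0988, 0.0656 and 0.0970). The number of low or high regions called at the locus was 0 without heifer 3, 6 or 8, where 5.21%, 4.27% and 4.17% of all regions were called. It was 1 (2.38%) without heifer 1 or 7, against 8.02% and 6.56% of all regions. Without heifer 5 (low-gain) it was 7 (16.7%), against 27% of all regions.

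The other regions among the 5 lowest did not pass, though the one at 6656499 lay slightly below the called region at 6592857. From 6656499 to 6657242 (3 probes) the mean was -0.54, from 6606411 to 6609072 (7 probes) -0.47 and from 6570054 to 6584241 (39 probes) -0.37, with adjusted p-values of 0.0666, 0.0750 and 0.0747 (limma). Without low-gain heifer 5 the regions at 6656499 and 6570054 passed at means of -0.72 and -0.46 (limma, adjusted p = 0.00709 and 0.0261). The region at 6570054 also passed without high-gain heifer 2 at -0.46 (limma, adjusted p = 0.0399), and that at 6606411 without high-gain heifer 4 at -0.64 (limma, adjusted p = 0.0165). At the upper end the region from 6733198 to 6738730 (13 probes) was highest. It stood at 0.05, 0.49, 0.47 and 1.23 in high-gain heifers and at 0.61, -0.09, 0.26 and 0.22 in low-gain heifers, so 7 of 8 arrays were positive and the groups overlapped widely. Its mean was 0.40 with a standard error of 0.14, which did not pass (limma, adjusted p = 0.0691). The regions starting at 6808975, 6658703, 6836296 and 6822725 followed at 0.31, 0.29, 0.25 and 0.23, and none passed. The region at 6808975 passed without low-gain heifer 5, at 0.37 (limma, adjusted p = 0.0466). It also passed with arrays weighted by how closely they followed their group, at 0.35 (limma, adjusted p = 0.0274). That weighting counted low-gain heifer 5 least.

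**Figure D2:**
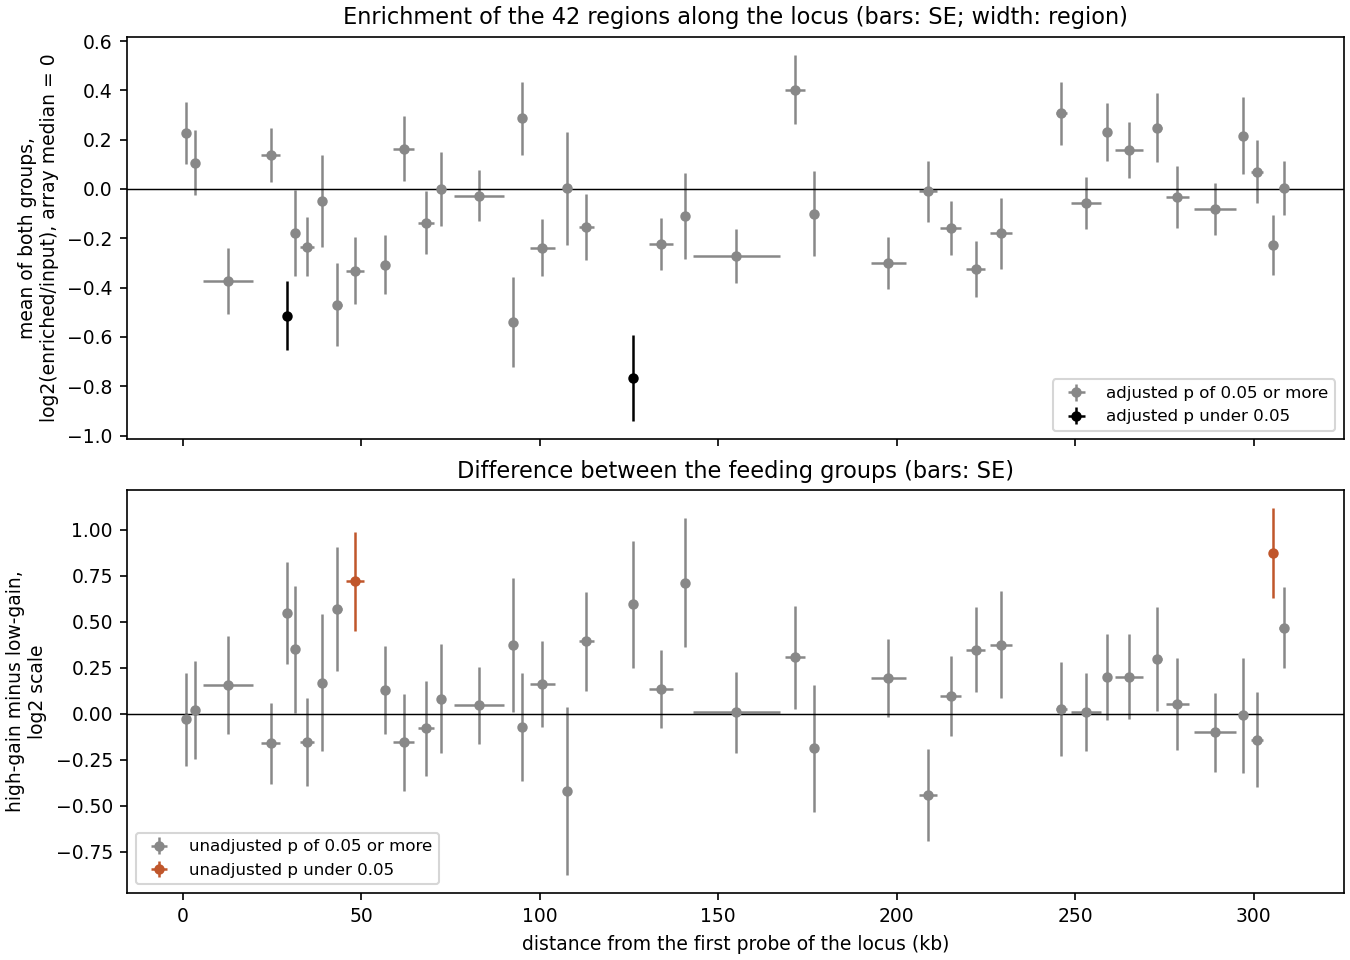
Upper panel: log2(enriched/input) of the 42 regions (mean of both groups, array median at 0) against distance from the first probe in kb. Lower panel: high-gain minus low-gain difference of the same regions on the log2 scale. Points sit at region centres, horizontal bars span the region and vertical bars are standard errors. The 2 black points, at -0.77 and -0.51, are the regions below the array median at an adjusted p under 0.05. The 2 orange points, at 0.72 and 0.87, differ between groups at an unadjusted p under 0.05, and neither passes after adjustment.

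Single probes departed further from the median than regions did. Of the 589 probes, 29 passed in the profile test (4.92%, against 5.54% of all probes; limma, adjusted over 10249 probes). Of these, 18 were below the array median (3.06%, against 4.23% of all probes) and 11 above (1.87%, against 1.31%). The lowest was the probe from 6761593 to 6761648, detected in the enriched DNA of 4 high-gain and 3 low-gain heifers. It stood at 0.28, -2.18, -3.90 and -2.40 in high-gain heifers and at -3.13, -3.25, -2.85 and -3.85 in low-gain heifers. Every array but that of high-gain heifer 1 was far below 0, and the mean was -2.66 with a standard error of 0.39 (limma, adjusted p = 0.0122). The probe before it, at 6761377, was also low, with a mean of -1.59 (limma, adjusted p = 0.0290). The probe after it, at 6761895, had a mean of 0.44 and did not pass (limma, adjusted p = 0.335). These probes, like the other single probes named below, were picked after their values were seen.

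The probe from 6598274 to 6598334 was low in each animal and bright enough to be measured in both channels on all arrays. It stood at -0.80, -1.15, -0.96 and -1.79 in high-gain heifers and at -1.59, -2.89, -2.38 and -3.21 in low-gain heifers. All 8 values were negative, with a mean of -1.85 and a standard error of 0.24 (limma, adjusted p = 0.00695, the smallest at the locus). Among the 11 high probes, 7 were detected in the enriched DNA of no heifer, and 5 of them in no input either. For such a probe the ratio compares signals near background and is not a level of enrichment. Among all 134 probes called high on the array the share detected in no enriched DNA was 58.2%. Among the 18 low probes of the locus the number was 0, against 6.68% of the 434 low probes on the array. The probe from 6568489 to 6568534 was high and measured in both channels on all arrays. It stood at 0.92, 0.52, 1.78 and 1.57 in high-gain heifers and at 0.75, 1.65, 1.92 and 2.25 in low-gain heifers, positive on every array (mean 1.42, standard error 0.24; limma, adjusted p = 0.0198).

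The comparison of feeding schedules is given for the locus as a description, since the locus was taken up with this comparison known. Between the groups, 50 probes were higher in high-gain heifers at an unadjusted p under 0.05 (8.49%, against 7.21% of all 10249 probes) and 34 were lower (5.77%, against 5.23% of all). After adjustment over all probes 0 of them passed at the locus and 0% passed on the array (limma, smallest adjusted p at the locus 0.167). The difference over the 589 probes ranged from -4.89 to 4.37 with a median of -0.02, against a median of -0.13 over all probes. Among probes with a value on every array, all 4 high-gain heifers lay above all 4 low-gain heifers in 19 (3.24%, against 2.67% of all probes) and below them in 28 (4.77%, against 4.2% of all). Without low-gain heifer 5 the counts at an unadjusted p under 0.05 were 68 higher (11.5%, against 10.9% of all probes) and 69 lower (11.7%, against 11.9%), and 21 probes passed after adjustment (3.57%, against 3.01%). Leaving out low-gain heifer 7 gave 21 lower probes (3.57%, against 3.27% of all), and leaving out low-gain heifer 8 gave 29 higher probes (4.92%, against 4.33% of all).

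The probes behind these counts differed in brightness. Of the 50 that were higher in high-gain heifers, 3 were detected in the enriched DNA of no low-gain heifer, and each of the 50 was detected in at least 1 heifer. Of the 34 that were lower, 21 were detected in the enriched DNA of no low-gain heifer, 19 in that of no high-gain heifer and 15 in none of the 8. For those 15 probes the enriched signal lay near background on every array, so a lower ratio is not a lower level of enrichment. Of the 34, only 2 were detected in the input of no heifer, so differences in input can enter the ratio. The higher probes included 24 at the longest coordinate length and 6 at the shortest, and the lower probes 14 and 6. Detection and length were not counted among the called probes of the whole array. A trait of the locus can thus not be told here from one of the array.

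Of the 589 probes, 291 (49.4%) had a difference above 0, against 44.7% of all probes. At the level of regions, 30 of the 42 (71.4%) had a difference above 0, against 47.9% of all regions. Neither share carries a test. At an unadjusted p under 0.05, 2 were higher in high-gain heifers (4.76%, against 6.25% of all) and 0 were lower (0%, against 8.23% of all). After adjustment 0 of 42 passed, against 0.104% of all regions (limma, smallest adjusted p at the locus 0.175). Leaving out heifer 3 or 5 gave 6 higher regions (14.3%, against 8.12% and 11.1% of all). Leaving out heifer 4, 6 or 8 gave 1 (2.38%, against 8.65%, 4.9% and 4.17% of all). Leaving out heifer 5 gave 1 lower region (2.38%, against 17.9% of all).

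The region from 6869469 to 6870503 (3 probes) had the highest positive difference at the locus. It stood at 0.27, -0.07, -0.0016 and 0.64 in high-gain heifers and at -0.42, -0.97, -0.74 and -0.52 in low-gain heifers. All 4 high-gain values lay above all 4 low-gain values, and low-gain heifer 6 was the lowest. The group means were 0.21 ± 0.32 in the high-gain group and -0.66 ± 0.25 in the low-gain group (SD, n = 4 each), a difference of 0.87 with a standard error of 0.24. The enriched channel differed by 0.99 and the input channel by 0.13. The probe starting at 6869469 carried the difference at 3.08, while those at 6870018 and 6870443 differed by 0.11 and -0.57. At this probe high-gain heifers stood at -0.22, 1.87, 0.84 and 3.04 and low-gain heifers at 1.63, -2.37, -2.49 and -3.57, so low-gain heifer 5 lay within the high-gain values. The region's difference was 1.59 over probes detected in input, where the probe at 6870443 dropped out. It was 3.08 over those detected in both channels, where only the probe at 6869469 was left. The region after it, from 6871455 to 6874200 (9 probes), was the only other one in which the groups did not overlap. It stood at 0.24, 0.01, 0.42 and 0.29 in high-gain heifers and at -0.02, -0.39, -0.09 and -0.43 in low-gain heifers. The difference there was 0.47 (standard error 0.22). Such regions made up 4.76% of the locus and 2.6% of all regions. In the opposite order, with all high-gain heifers below all low-gain heifers, there were 0 regions at the locus and 3.65% of all regions.

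The region from 6610073 to 6615198 (15 probes) came second. It stood at -0.09, -0.30, 0.03 and 0.49 in high-gain heifers and at -0.17, -0.93, -0.59 and -1.08 in low-gain heifers. High-gain heifer 2 lay below low-gain heifer 5, so the groups overlapped. The means were 0.03 ± 0.33 in the high-gain group and -0.69 ± 0.40 in the low-gain group (SD, n = 4 each), and the difference was 0.72 (standard error 0.27). It was 0.35 in slide row 1 and 1.09 in slide row 2. The regions starting at 6704614, 6689654 and 6606411 followed at 0.71, 0.59 and 0.57, all with overlapping groups. Single heifers moved each of these by more than 1.5 times. The difference at 6704614 was 0.47 without low-gain heifer 8, that at 6689654 was 0.32 without high-gain heifer 2, and that at 6606411 was 0.23 without high-gain heifer 4 and 0.86 without high-gain heifer 3. For the region at 6606411 it became -0.60 over probes detected in both channels.

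In the other direction the region from 6770821 to 6775609 (20 probes) had the lowest difference. It stood at -0.42, -0.40, -0.19 and 0.09 in high-gain heifers and at -0.32, 0.50, 0.31 and 0.35 in low-gain heifers. Low-gain heifer 5 lay among the high-gain values and the other 3 low-gain heifers above them. The difference was -0.44 (standard error 0.25), and -0.62 without low-gain heifer 5. With normexp, another background correction, it was -0.07. The region from 6671728 to 6672567 (3 probes) stood at -0.11, 0.70, 0.09 and -1.51 in high-gain heifers and at -0.88, 0.44, 0.61 and 0.67 in low-gain heifers. Its difference of -0.42 was 0.52 in slide row 1 and -1.35 in slide row 2. Leaving out high-gain heifer 4 turned it to 0.017, and leaving out heifer 2, 5 or 8 gave -0.72, -0.78 and -0.27. In this region 2 of its 3 probes were detected in the enriched DNA of no low-gain heifer. The region starting at 6740237 differed by -0.19 over all heifers, with 0.60 in slide row 1 and -0.97 in slide row 2. With a heifer left out it ran from -0.42 (heifer 2) to 0.07 (low-gain heifer 7), and was 0.025 without high-gain heifer 4. The regions starting at 6586414 and 6623380 both differed by -0.16. The one at 6586414 was at -0.06 without low-gain heifer 6 and at -0.25 without low-gain heifer 5. The one at 6623380 was at -0.0081 without high-gain heifer 3, at -0.0030 without low-gain heifer 8 and at 0.13 in slide row 1.

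**Figure D3:**
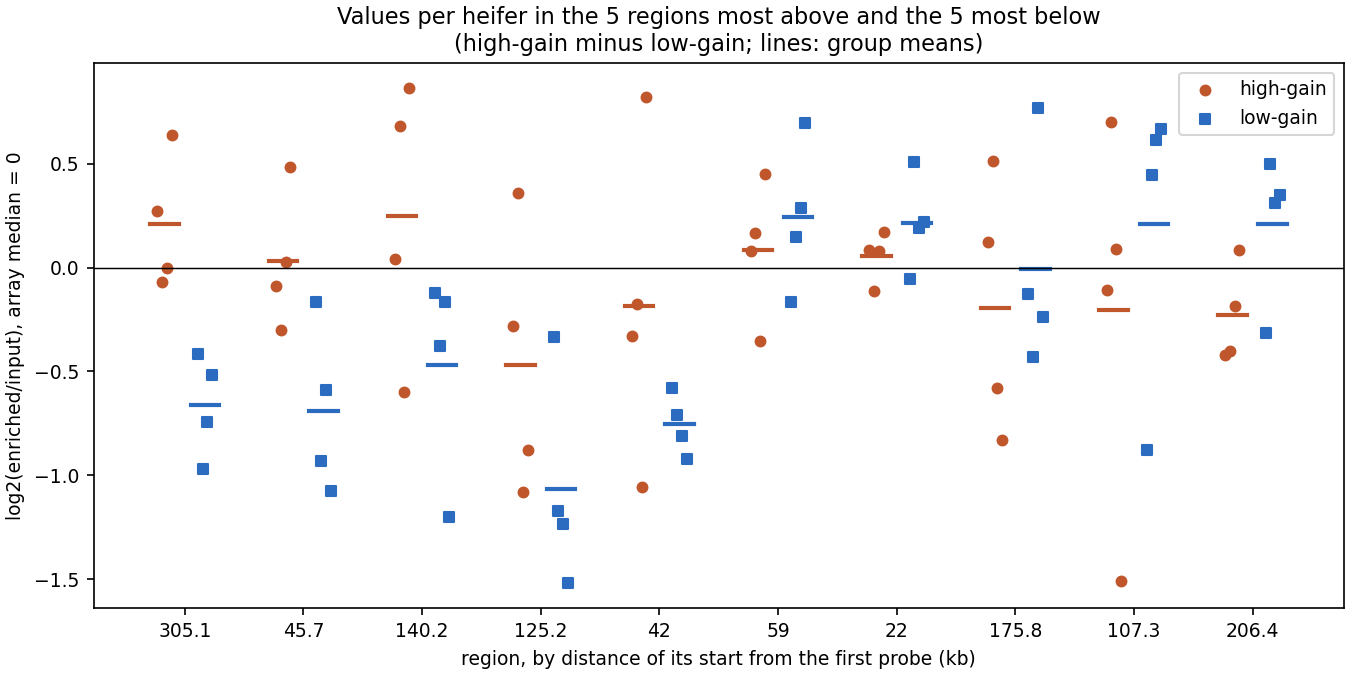
log2(enriched/input) of each heifer, array median at 0, in the 5 regions with the highest positive and the 5 with the lowest negative difference, named by the distance of their start from the first probe in kb. Orange circles are high-gain heifers, blue squares low-gain heifers, and lines are group means. Only in the leftmost region, at 305.1 kb, do the 4 high-gain heifers (-0.07 to 0.64) lie above the 4 low-gain heifers (-0.97 to -0.42).

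A run is defined as 3 or more neighbouring probes that each differ in the same direction at an unadjusted p under 0.05, with starts no further apart than 1000 bp. The array held 13 runs and the locus 1, from 6612227 to 6612846 inside the region that starts at 6610073. Averaged over its 3 probes it stood at 0.21, 0.26, -0.06 and 1.65 in high-gain heifers and at -0.81, -2.24, -1.66 and -2.09 in low-gain heifers. The groups did not overlap, with high-gain heifer 4 the highest and low-gain heifer 5 the nearest of its group to the high-gain values. The means were 0.51 ± 0.77 in the high-gain group and -1.70 ± 0.64 in the low-gain group (SD, n = 4 each), and the difference was 2.22 (standard error 0.50). A run is picked by its difference, so this size is a description.

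The enriched signal differed between the groups by more than the input signal. Relative to the median of its channel, the enriched signal of the run was 2.84 ± 0.66 in the high-gain group and 0.84 ± 0.68 in the low-gain group (SD, n = 4 each). The input signal was 2.05 ± 0.21 in the high-gain group and 2.25 ± 0.31 in the low-gain group. The probes starting at 6612227, 6612408 and 6612801 differed by 2.25, 1.91 and 2.48. The first and second were detected in both channels of all 8 arrays, and the third in the enriched DNA of 4 high-gain and 2 low-gain heifers. Slide row 1 alone gave a difference of 1.76 and slide row 2 one of 2.67. The difference lay between 1.84 and 2.51 with each heifer left out in turn, 1.61 with normexp and 1.55 with loess.

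The probes directly on either side did not follow the run. At 6611836 high-gain heifers stood at -0.32, -0.42, -0.29 and 0.65 and low-gain heifers at 0.17, 0.83, 1.19 and 0.91. Here 3 low-gain heifers lay above all high-gain heifers, a difference of -0.87 with a standard error of 0.44. At 6613297 high-gain heifers stood at -0.02, -0.44, 0.54 and 0.0068 and low-gain heifers at 1.42, -0.52, -0.55 and -2.77. The groups overlapped there, with low-gain heifer 5 the highest of all, and the difference was 0.63 (standard error 0.78). The probe after that, at 6613615, again had a positive difference, of 1.97 (standard error 0.86), with -0.20, -1.23, 2.10 and 2.58 in high-gain heifers and -1.78, -1.43, -1.39 and -0.03 in low-gain heifers.

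**Figure D4:**
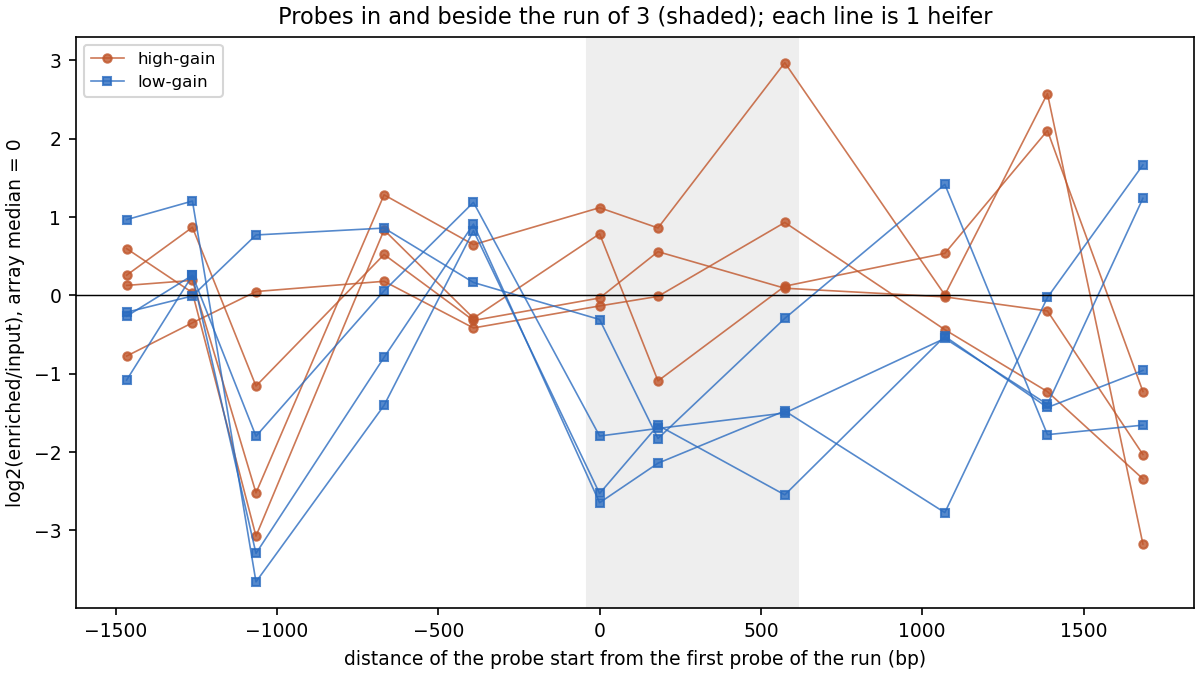
log2(enriched/input), array median at 0, of the probes in and beside the run, against distance of the probe start from the first probe of the run in bp. Each line joins the values of 1 heifer, orange for high-gain and blue for low-gain, and the grey band covers the 3 probes of the run. At each probe of the run the 4 orange lines lie above the 4 blue ones (at the middle probe -1.09 to 0.86 against -2.14 to -1.66), and at the probes directly on either side the colours overlap.

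The largest difference of either sign at a single probe was at 6812155 to 6812215. It stood at 0.33, -1.08, 1.87 and 2.84 in high-gain heifers and at 1.25, 7.31, 7.50 and 7.48 in low-gain heifers. Low-gain heifers 6, 7 and 8 were far above all others, and low-gain heifer 5 lay among the high-gain heifers. The probe ranked 1, 2 and 3 of all probes on the arrays of low-gain heifers 6, 7 and 8, and 287 to 9428 on the high-gain arrays. Its enriched signal relative to the channel median was 3.33 ± 2.40 in the high-gain group and 8.32 ± 3.03 in the low-gain group (SD, n = 4 each), and its input signal 2.05 ± 0.57 in the high-gain group and 2.15 ± 0.47 in the low-gain group. No spot of the locus was marked saturated. The difference was -4.89 (standard error 1.44). The neighbouring probes did not share it. At 6811841 high-gain heifers stood at -0.38, 0.22, 1.24 and 1.03 and low-gain heifers at 1.03, -0.27, -0.13 and 0.95, and the next probe, at 6813227, was detected in neither channel of any array. Without this probe the mean of the region from 6808975 to 6812215 over both groups was -0.08, against 0.31 with it.

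The probe from 6726460 to 6726519 differed most in the other direction. It stood at 0.33, 1.17, 2.16 and 2.43 in high-gain heifers and at -3.83, -2.89, -1.90 and -2.77 in low-gain heifers. The groups were widely apart and low-gain heifer 5 was the lowest, so here it stood with its own group. The difference was 4.37 (standard error 0.60). Relative to the channel median the enriched signal was 1.66 ± 1.54 in the high-gain group and -2.21 ± 1.55 in the low-gain group (SD, n = 4 each), and the input signal -0.14 ± 0.72 in the high-gain group and 0.35 ± 0.96 in the low-gain group. The probe was detected in the enriched DNA of all 4 high-gain heifers and of 1 low-gain heifer. Of its neighbours, the probe at 6726142 differed by 1.43 (standard error 0.97) and the probe at 6726764 by 0.20 (standard error 0.50).

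How many probes could be measured differed between the groups at the locus and elsewhere. In the enriched channel 73.9%, 73.5%, 68.1% and 74.2% of the 589 probes were detected in high-gain heifers 1 to 4, and 62.1%, 59.6%, 64.0% and 44.3% in low-gain heifers 5 to 8. Each high-gain array lay above each low-gain array, and low-gain heifer 8 was lowest. The mean was 72.4% ± 2.90 in the high-gain group and 57.5% ± 8.98 in the low-gain group (SD, n = 4 each), against 73.9% ± 2.25 and 62.6% ± 8.56 over all other probes. In the input channel the locus averaged 84.6% ± 6.66 in the high-gain group and 82.3% ± 2.31 in the low-gain group. The part of detection in the differences between groups was not tested. At the locus 226 probes (38.4%) were detected in the enriched DNA of all heifers and 65 (11.0%) in that of none. Another 78 were detected in some high-gain heifer but in no low-gain heifer, and 14 the other way round. None of these counts was made over the other probes, so they are not traits of the locus. In both channels of all arrays, 226 of the 589 probes were detected, against 4495 of all 10249 probes.

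Detection moved with the length of the probe on every array, and level did so on some arrays. At the longest length 63.0% ± 6.95 of the locus's probes were detected in the enriched channel in the high-gain group and 44.9% ± 10.2 in the low-gain group, against 82.2% ± 2.53 and 73.2% ± 6.65 at the shortest (SD, n = 4 each). The 192 longest probes averaged -0.12 ± 0.24 in the high-gain group and -0.39 ± 0.11 in the low-gain group. The 181 shortest averaged -0.02 ± 0.23 in the high-gain group and 0.15 ± 0.17 in the low-gain group. On average the longest probes were higher in the high-gain group and the shortest lower, and the groups overlapped in both classes. Across probes Spearman's rho between length and the mean of both groups was -0.25 at the locus (n = 589) and -0.32 elsewhere (n = 9660), and between length and the difference 0.18 and 0.25. On single arrays, rho between length and level at the locus was -0.04, 0.20, 0.01 and -0.20 in high-gain heifers 1 to 4. In low-gain heifers 5 to 8 it was -0.02, -0.24, -0.22 and -0.18. Probes are not independent replicates, and the part of length in the results above was not tested.

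Set against the other probes of the same arrays, the locus had fewer detected probes and a lower correlation of neighbours on most arrays, but no difference passed after adjustment. Altogether 7 comparisons were made within arrays, with an exact permutation test over the 8 arrays that flips signs, two-sided, whose smallest possible p is 0.00781. Detection in the enriched channel was 65.0% at the locus and 68.3% elsewhere, lower on 7 of 8 arrays by a mean of 3.29 percentage points (exact p = 0.0156, adjusted over the 7 comparisons 0.0547). Detection in the input channel was 83.4% at the locus and 84.8% elsewhere, also lower on 7 of 8 arrays (exact p = 0.0156, adjusted 0.0547). The spread of probes within an array had an SD of 1.27 at the locus and 1.24 elsewhere, higher on 6 of 8 arrays (exact p = 0.0625, adjusted 0.0729). Probes next to each other, the pairs numbering 409 to 412 per array, correlated at a mean r of 0.07 at the locus and 0.13 elsewhere, lower on 6 of 8 arrays (exact p = 0.0547, adjusted 0.0729). 

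**Figure D5:**
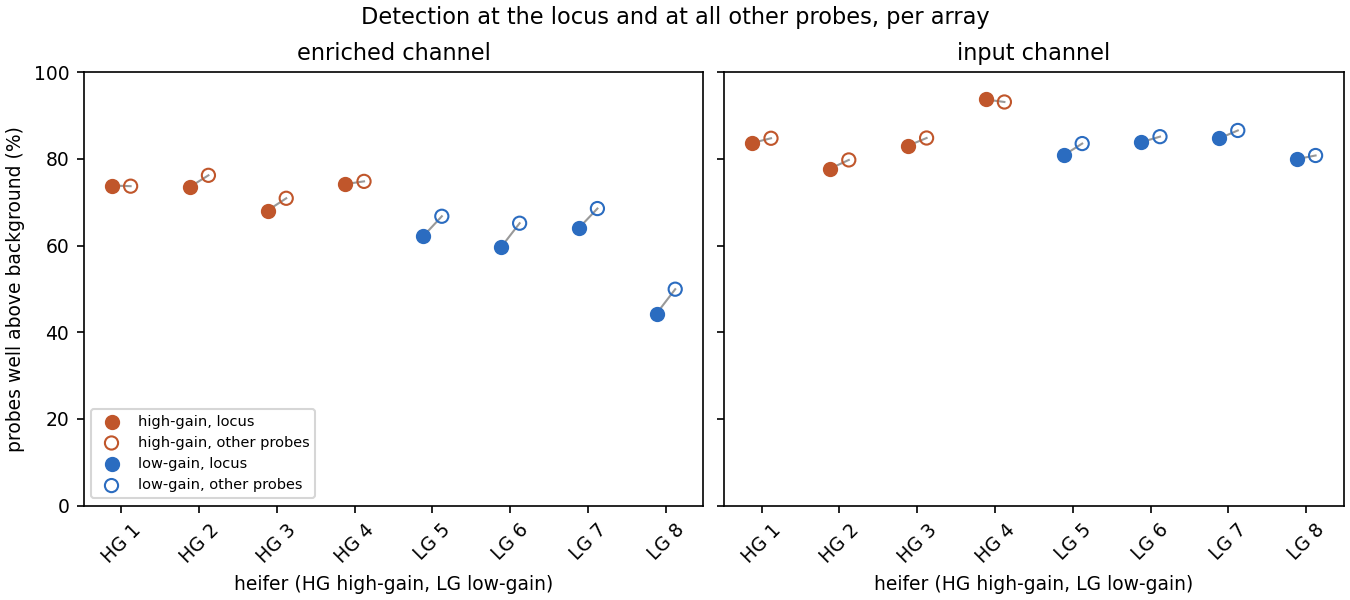
Percent of probes well above background on each array at the chromosome 21 locus (filled) and over all other probes (open), in the enriched channel (left) and the input channel (right). High-gain heifers (HG, orange) precede low-gain heifers (LG, blue), and a line joins the values of 1 array. In the enriched channel the locus runs from 68.1% to 74.2% in high-gain and from 44.3% to 64.0% in low-gain heifers.

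Against the 3 tiled loci nearest to it in number of probes, the level also did not differ past the threshold. The mean log2 ratio was -0.11 ± 0.08 at the chromosome 21 locus and -0.26 ± 0.24 at the locus on chromosome 20 from 33893946 to 34209754 with 564 probes (SD over 8 arrays). The chromosome 21 locus was higher on 7 of 8 arrays by 0.15 (exact permutation p = 0.0781, adjusted 0.0781). It was higher on 7 of 8 arrays than the locus on chromosome 4 from 28306692 to 28517774 with 406 probes, which averaged -0.39 ± 0.31, by 0.28 (exact permutation p = 0.0391, adjusted 0.0729). It was lower on 7 of 8 arrays than the locus on chromosome 29 from 51071778 to 51627535 with 510 probes, which averaged 0.12 ± 0.21 (difference -0.23, exact permutation p = 0.0469, adjusted 0.0729). Without high-gain heifer 2, all of the 7 comparisons but that of the SD passed (exact permutation, adjusted p = 0.0365). The chromosome 21 locus varied least of these 4 from array to array, with an SD of 0.08 against 0.21 to 0.31, a difference that was not tested.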

How the data were processed

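DNA of 8 heifers, 4 per feeding schedule, was hybridised to 8 arrays of 2 colours, enriched DNA in red and input in green per the labels, with no dye swap. The deposited scanner files hold intensity values. Per the file headers, the software was Agilent's Feature Extraction 10.7.1.1 with protocol ChIP_107_Sep09, and the build is Btau_3.1. The processed signals used here are background-subtracted and dye-normalised by that software, per the file headers. The authors' deposited table holds a log2 ratio of background-subtracted median signals (equal within 0.0001 wherever both signals were positive), not centred, with array medians from -1.82 to 0, and served as an alternative. The aligner of probes to the genome is not given in the sources used here.

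From the processed signals, log2(red/green) was computed per non-control probe, 28 outlier spots were dropped (2 of them at the locus, both of heifer 1, where the fit used the other arrays), and the median of each array was subtracted. A shift common to all probes is thereby removed. Probes, 960 regions and 97 loci (at least 10 probes with gaps of at most 20000 bp) were fitted over the whole array with limma 3.58.1 in R 4.3.3 (lmFit, eBayes, two-sided, Benjamini-Hochberg, threshold 0.05), checked on simulated data. Single values per array used exact permutation tests. Named items are every run, the 5 regions with the highest and the 5 with the lowest difference, and the 5 highest and 5 lowest in the profile. Members, lists and tests were chosen with earlier results of these data known. Alternatives were normexp (offset 50), loess, scaling, the authors' values, filters on dim and bright probes, array weights, slide row, a gap of 500 bp and each heifer left out. Heifers are separate animals. Batches of capture or labelling are not given in the labels. The number of arrays limits the precision.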

Additional observations from a re-analysis of the deposited data

Results flagged for a closer look

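Values per group of 4 heifers were checked for a single animal far from the other 3 (Dixon's test at the 95% level) in 50 groups, and 3 exceeded it. Chance gives about 1 in 20 groups. In the share of the locus's probes well above background in the enriched channel, high-gain heifer 3 stood at 68.1%, the nearest other high-gain heifer being at 73.5%. In the region from 6671728 to 6672567, low-gain heifer 5 stood at -0.88 and the nearest other low-gain heifer at 0.44. At the probe from 6812155 to 6812215, low-gain heifer 5 stood at 1.25, against 7.31 to 7.50 in the other 3 low-gain heifers.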

How the results depend on the processing

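The mean level of the locus over both groups passed with normexp (-0.10; limma, adjusted p = 0.0260) and with array weights (-0.12; limma, adjusted p = 0.0439), and was 0.0013 over probes well above background in both channels (limma, adjusted p = 0.989). The share of all loci that passed with normexp or array weights was not counted. Of all regions, 29.5% with normexp and 31.8% with array weights were called in the profile. The mean level of the locus ran from -0.13 to -0.10 with a heifer left out. The difference of the locus between groups was 0.19 with normexp, 0.042 with scaling, 0.35 over probes well above background in input, 0.20 over those in both channels, and 0.08 to 0.13 with a heifer left out. Counts at the locus are given with their share and the share over the whole array. The probes higher in high-gain heifers numbered 27 of the 226 detected in both channels (11.9%, against 10.4%), 99 with array weights (16.8%, against 15.5%), 27 within slide row 1 (4.58%, against 4.66%), and 29 to 68 with a heifer left out. The lower probes numbered 12 of the 393 detected in input (3.05%, against 3.41%), 14 of the 226 detected in both channels (6.19%, against 5.21%), 95 with array weights (16.1%, against 16.5%), 9 within slide row 1 (1.53%, against 1.59%), and 21 to 69 with a heifer left out. The higher regions numbered 12 with normexp (28.6%, against 18.1%), 9 with the input filter (21.4%, against 12.9%), 7 with array weights (16.7%, against 15%), 5 with the authors' values (11.9%, against 7.4%) and 5 with the filter on both channels (11.9%, against 9.87%). They numbered 6 of 77 with gaps of at most 500 bp (7.79%, against 6.95%), 1 with loess, scaling or slide row 1 alone (2.38%, against 3.65%, 4.17% and 6.98%), and 1 to 6 with a heifer left out. The lower regions numbered 2 with the filter on both channels and within slide row 2 (4.76%, against 6.47% and 7.5%), 2 with the 500 bp gap (2.6%, against 5.51%), 1 with array weights (2.38%, against 22.3%), and 0 to 1 with a heifer left out. The regions called in the profile numbered 10 with normexp or array weights (23.8%, against 29.5% and 31.8%), 6 with the input filter (14.3%, against 22%), 4 with loess or with slide row blocked (9.52%, against 26.4% and 17.6%), 1 with scaling (2.38%, against 8.12%) and 0 within slide row 1 (against 2.5%). They numbered 8 with the 500 bp gap (10.4%, against 14%), and 0 to 7 with a heifer left out. With array weights 16 probes of the locus (2.72%, against 3.24% of all) and 5 regions (11.9%, against 19.1% of all) differed between groups after adjustment.

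With a heifer left out, the locus minus the other probes ran from -3.78 to -2.96 percentage points in enriched detection, from -1.65 to -1.17 in input detection, and from -0.069 to -0.046 in the r of neighbours. Its mean minus that of the other locus ran from 0.088 to 0.20 for chromosome 20, from -0.28 to -0.19 for chromosome 29 and from 0.21 to 0.34 for chromosome 4. The profile mean of the region at 6606411 turned to 0.053 over probes measured in both channels, and that of the region at 6808975 to -0.085 without the probe at 6812155, an alternative chosen after seeing the data. For the 21 values of single regions and runs, 358 of 399 alternatives were counted as unchanged. A profile mean had to keep its direction and side of the threshold. A difference had to move by less than the spread between heifers, which could exceed the difference itself. At 6671728 the SD was 0.93 in the high-gain and 0.73 in the low-gain group, against a difference of -0.42. A difference whose sign turned could thus count as unchanged, and the tally says little about stability. For the other changes the cause was not tested. No paired analysis was possible because the groups share no replicate numbers.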
